A study of Rattus norvegicus with 12 samples.

Results

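Cytosolic ribosomal protein genes were taken as every gene whose platform symbol starts with Rpl or Rps and a number, or is Rplp0, Rplp1 or Rplp2, without the S6 kinase genes (Rps6k). That rule found 73 of the 14506 genes measured, each read from its brightest probe set with a single gene symbol. They were 39 large subunit genes, 26 small subunit genes, the 3 stalk genes, 3 symbols of paralogues (Rpl22l1, Rpl36al1 and Rpl37l1), and 2 symbols that are no ribosomal protein gene. Of those last 2, Rpl17-ps16 is a pseudogene and Rps19bp1 encodes a protein that binds Rps19. The symbols are those of the array's annotation. The current RefSeq table gives Rpl37 as a synonym of Rpl37l1 and Rpl36al as a synonym of Rpl36al1. The paralogue class follows the form of the symbol alone. No member has the symbol Rpl37, so Rpl37l1 may be that large subunit gene under another symbol.

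RNA came from 12 primary cultures of heart muscle cells (cardiac myocytes) of neonatal Sprague Dawley rats, 1 array per culture. The cells were transfected with an siRNA against p300 (p300kd), the lysine acetyltransferase encoded by Ep300, or with a non-silencing siRNA (NS). Doxorubicin (Dox), an anthracycline cancer drug and poison of topoisomerase II, was given at 1 µM for 8 h or 0 h, which made 4 groups of 3 arrays: p300kd with Dox for 8 h, p300kd at 0 h, NS with Dox for 8 h and NS at 0 h. Each group had replicates 1 to 3, and cultures with the same replicate number are called 1 experiment here. The sample titles give the number alone, and the grouping is taken from how the arrays varied together. All cultures had also received bromodeoxyuridine against fibroblast growth and spent 48 h without serum. The siRNA lowers p300 for a time and does not delete it, and the labels put myocytes at over 90% of the cells. The 0 h cultures were the only ones without Dox, so the drug and 8 more hours in culture cannot be told apart. In bulk RNA a change in RNA per cell and a change in the mix of cells cannot be told apart either.

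The cytosolic ribosome holds a small subunit, which decodes the mRNA, and a large subunit, which joins the amino acids, and each ribosomal protein is made in step with the others. Mammalian ribosomal protein mRNAs begin with a C followed by a run of pyrimidines (the 5′ terminal oligopyrimidine, or TOP, motif), through which mTORC1 and LARP1 control their translation. Ribosomal RNA is made by RNA polymerase I. In cardiac myocytes, making more ribosomes is known as part of the growth of the cell in hypertrophy.

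Ep300 was lower in both p300kd groups. Its mean log2 intensity was 9.85 ± 0.233 in p300kd cells at 8 h and 10.16 ± 0.215 in p300kd cells at 0 h, against 10.77 ± 0.0817 in NS cells at 8 h and 11.11 ± 0.0838 in NS cells at 0 h (SD, n = 3 each). At 0 h the log2 difference was -0.95 (SE 0.126, adjusted p = 0.0404), and at 8 h it was -0.92 (SE 0.126, adjusted p = 0.0271). The 12 markers of cardiac myocytes were read in all groups, and their summed log2 intensity lay between 16.73 and 16.98 on the 12 arrays, with 0 of 12 called in any comparison. With the experiment (replicate number) as a block in the model, 2 were higher and 1 lower after Dox in p300kd cells, 1 higher after Dox in NS cells, and 1 higher in p300kd than in NS cells averaged over both times. The median over all probe sets of an array lay between 7.73 and 7.80 log2 units.

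After 8 h of Dox in p300kd cells, 38 of the 73 ribosomal protein genes rose and 0 fell (limma, adjusted p under 0.05). That is 52.1% of them, where 13.9% of all genes rose and 31.4% changed in either direction. The median log2 change of the 73 was 0.20, against 0.04 for all genes, and it was 0.16, 0.23 and 0.22 in the 3 experiments taken one by one. The changes ran from -0.16 to 0.65, and 70 of the 73 lay above 0, as did 57.4% of all genes. With that block 52 rose and 0 fell, and 22.9% of all genes rose. In 49 members every Dox array was above every 0 h array, which held for 21.6% of all genes.

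With the non-silencing siRNA, 17 of the 73 rose after Dox and 0 fell, or 23.3%, where 11.1% of all genes rose and 27.5% changed in either direction. The same block gave 47 higher and 0 lower, with 21.6% of all genes higher. The median log2 change was 0.14, against 0.04 for all genes, and 0.07, 0.14 and 0.21 by experiment. The range was -0.19 to 0.46, with 70 of 73 above 0 against 57.2% of all genes. In 32 members the Dox arrays lay wholly above the 0 h arrays, against 20.1% of all genes.

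**Figure D1:**
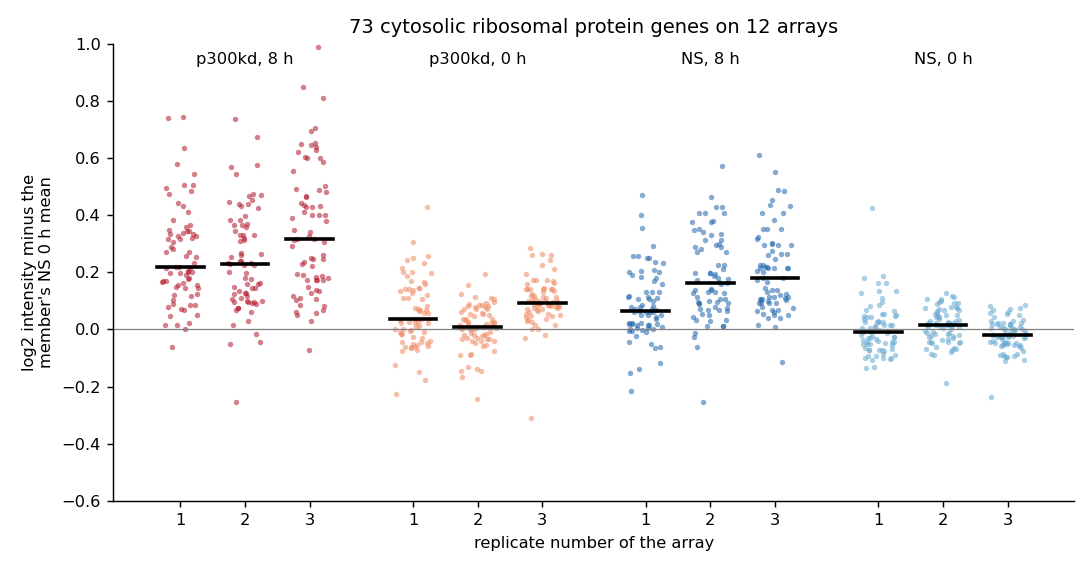
Log2 intensity of each of the 73 ribosomal protein genes on each of the 12 arrays, minus that gene's mean in NS cells at 0 h. Points are genes, spread sideways for sight, and black bars are the medians of an array, which run from 0.22 to 0.32 in p300kd cells at 8 h and from 0.06 to 0.18 in NS cells at 8 h.

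The array medians of the members show the same order. In p300kd cells at 8 h the median member had a log2 intensity of 12.75, 12.75 and 12.86, against 12.55, 12.51 and 12.62 in p300kd cells at 0 h. The NS arrays had 12.62, 12.69 and 12.70 at 8 h, against 12.58, 12.52 and 12.48 at 0 h. All Dox arrays were thus above all 0 h arrays of the same siRNA, and the step was smallest in experiment 1 of the NS cells.

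The counts of calls depended most on experiments 2 and 3. Without experiment 1 the rise passed in 39 members in p300kd cells, against 15.2% of all genes, and in 25 in NS cells, against 11.5%. Without experiment 3 the rise passed in 14 members in p300kd cells and in 0 in NS cells, where 5.42% of all genes rose in p300kd cells and 4.18% in NS cells. Without experiment 2 it passed in 10 members in p300kd cells, against 5% of all genes, and in 2 in NS cells, against 3.14%. The 2 in NS cells were Rps27 and Rpl7a. Leaving out single arrays gave 24 in p300kd cells without p300kd replicate 3 at 8 h, or 32.9%, against 9.38% of all genes. In NS cells it gave 7 (9.59%) without replicate 3 at 8 h, close to the 7.86% of all genes. Without replicate 3 at 0 h it gave 7 (9.59%), close to the 8.49% of all genes. Without replicate 2 at 0 h it gave 11 (15.1%), against 8.26% of all genes. A further quantile normalisation of the deposited values lowered the median change to 0.10 in p300kd cells, with 25 called, and to 0.08 in NS cells, with 10 called. In that setting 34.2% of members and 13.6% of all genes rose in p300kd cells. In NS cells the shares were close, at 13.7% of members and 11.4% of all genes. No setting called a member lower.

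Among small subunit genes, 15 of 26 rose in p300kd cells (57.7%, against 13.9% of all genes). In NS cells 10 of 26 rose (38.5%, against 11.1% of all genes). With the block 19 rose in p300kd cells (73.1%, against 22.9% of all genes) and 18 in NS cells (69.2%, against 21.6%). Rps15a had the largest change in p300kd cells. Its log2 intensity was 11.58, 11.51 and 11.69 in p300kd cells at 8 h, against 11.07, 10.82 and 10.92 in p300kd cells at 0 h. In NS cells it was 11.07, 11.26 and 11.45 at 8 h, against 10.87, 10.79 and 10.85 at 0 h. The Dox arrays did not overlap the 0 h arrays under either siRNA, and replicate 1 was the lowest of the NS arrays at 8 h. The rise was 0.65 in p300kd cells (SE 0.0985, 1.57-fold, adjusted p = 0.000303) and 0.42 in NS cells (SE 0.0985, 1.34-fold, adjusted p = 0.00661).

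Rps27, which carries a zinc finger, had 7.80, 7.51 and 8.04 in p300kd cells at 8 h, against 7.30, 6.81 and 7.28 in p300kd cells at 0 h. In NS cells it had 7.53, 7.40 and 7.61 at 8 h, against 7.22, 6.98 and 6.97 at 0 h. The groups were apart within each siRNA, although p300kd replicate 2 was the lowest of its group at both times. The rise was 0.65 in p300kd cells (SE 0.148, adjusted p = 0.00488) and 0.46 in NS cells (SE 0.148, adjusted p = 0.0366). The NS value lost its call in 9 of 25 alternatives, with an adjusted p of up to 0.209.

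Rps24 and Rps19 are both genes in which mutations cause Diamond-Blackfan anaemia in humans. Rps24 had 10.86, 10.95 and 11.09 in p300kd cells at 8 h, against 10.41, 10.42 and 10.42 at 0 h. The NS arrays gave 10.52, 10.96 and 10.82 at 8 h, against 10.33, 10.51 and 10.31 at 0 h. The p300kd groups were far apart, whereas NS replicate 1 at 8 h lay just above the highest 0 h array. Rps24 rose by 0.55 in p300kd cells (adjusted p = 0.00197) and by 0.38 in NS cells (adjusted p = 0.0202), each with an SE of 0.109. The NS call of Rps24 was lost in 6 of 25 alternatives, all of which left out arrays. Rps19 rose by 0.48 in p300kd cells (adjusted p = 0.00166) and by 0.35 in NS cells (adjusted p = 0.0139), each with an SE of 0.0919.

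A further 4 small subunit genes rose under both siRNAs and were among the 10 with the largest rise in at least 1 of them. Rps12 rose by 0.49 in p300kd cells and by 0.33 in NS cells (SE 0.0819). Rps13 had 0.45 in p300kd cells and 0.37 in NS cells (SE 0.093), and Rps21 had 0.44 in p300kd cells and 0.32 in NS cells (SE 0.0859). Rps9 rose by 0.41 in p300kd cells and by 0.34 in NS cells (SE 0.0825). Adjusted p of these genes lay between 0.000606 and 0.0136, and none of their Dox groups overlapped the matching 0 h group.

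Rps3a, which lies near the mRNA exit of the small subunit, differed most between the siRNAs. It had 12.57, 12.62 and 12.74 in p300kd cells at 8 h, against 12.22, 12.22 and 11.95 in p300kd cells at 0 h. NS cells had 12.29, 12.53 and 12.36 at 8 h, against 12.31, 12.23 and 12.23 at 0 h. The p300kd groups were apart and the NS groups overlapped. It rose by 0.52 in p300kd cells (SE 0.0851, adjusted p = 0.000573), and its value in NS cells was 0.14 (SE 0.0851, adjusted p = 0.258). At 0 h its p300kd arrays were all below its NS arrays, by -0.13 in log2 units (SE 0.0851, adjusted p = 0.9).

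Some small subunit genes passed only with the block. Rps14, a gene lost in the human 5q- syndrome, had 0.18 in p300kd cells (adjusted p = 0.228) and 0.27 in NS cells (adjusted p = 0.0813). Blocking on the experiment brought both past the threshold (adjusted p = 0.00591 in p300kd cells and 0.000327 in NS cells). Rps18 had 0.24 in p300kd cells and did not pass without the block (adjusted p = 0.0825, or 0.0019 with it). Without the block Rps2 was the only member called in NS cells and not in p300kd cells, with 0.06 in p300kd cells (adjusted p = 0.22) and 0.11 in NS cells (SE 0.0376, adjusted p = 0.0394), and is named for that reason. With the block 7 members, each read from its brightest probe set, were called in NS cells alone: Rps2, Rps15, Rps16, Rpl13, Rpl18, Rpl27 and Rplp0. For some of them the value in p300kd cells depended on the probe set. The brightest had 0.07 and the median of all probe sets 0.29 in Rpl13, and 0.09 and 0.17 in Rpl27. The 2 probe sets of Rplp0 had 0.07 and 0.18. In Rps2 the brightest and the median both had 0.06, and Rpl18, Rps15 and Rps16 had 1 probe set each.

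**Figure D2:**
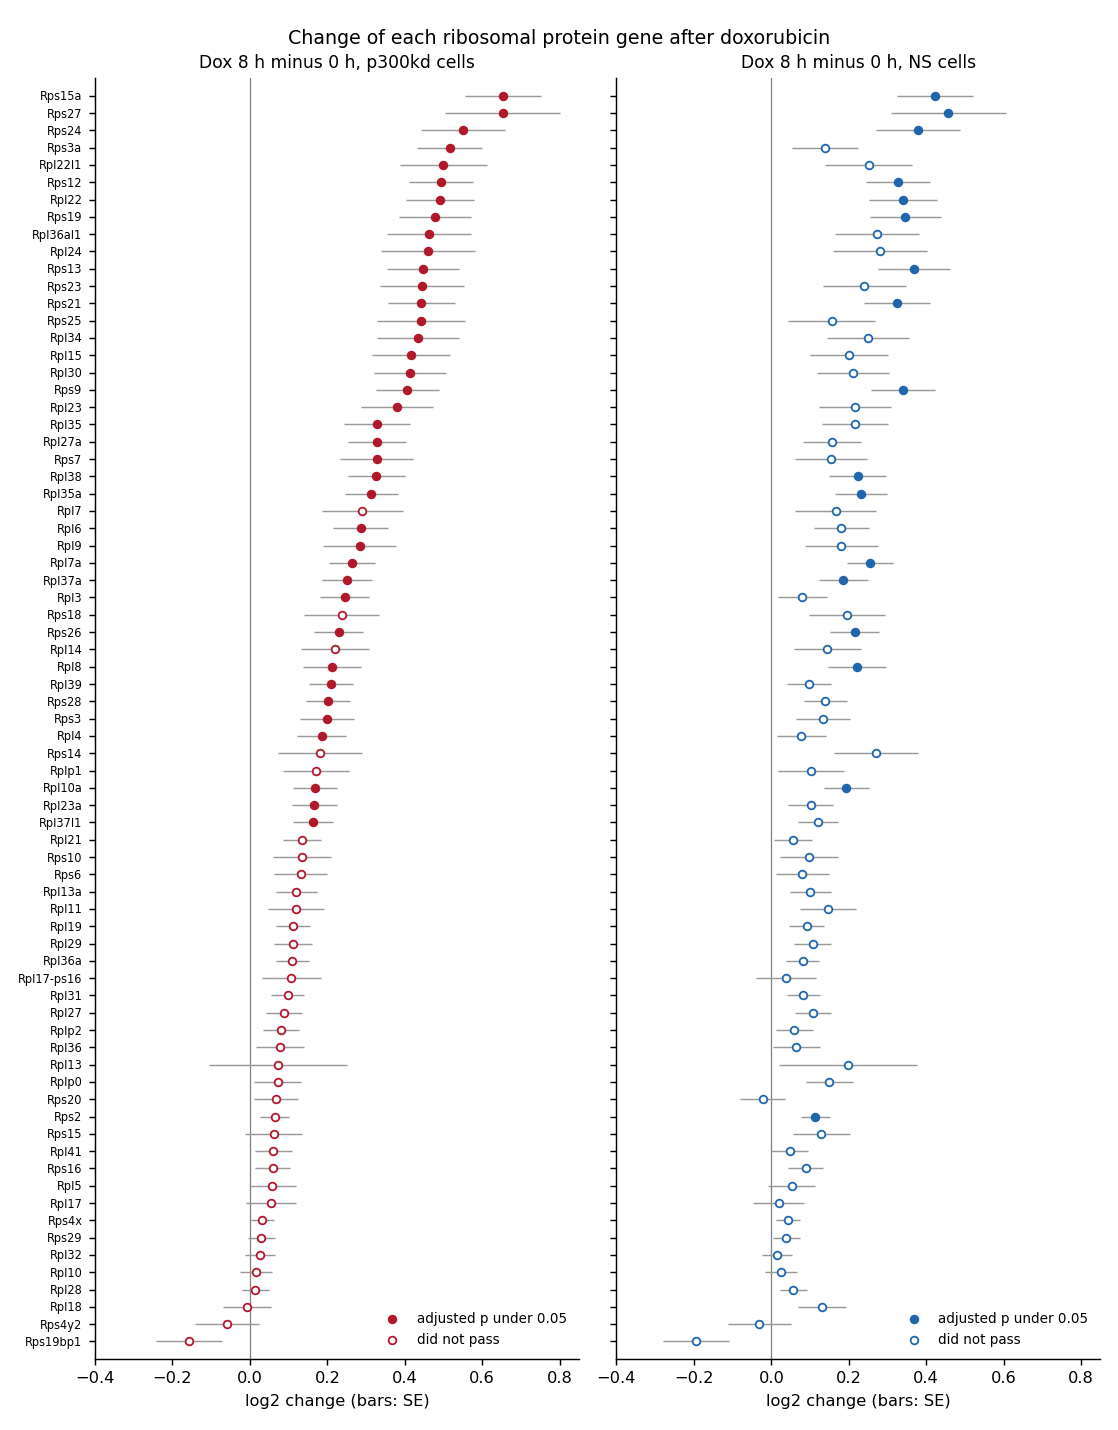
Log2 change after 8 h of Dox (horizontal axis, bars are SE from limma) for each of the 73 genes, ordered by the change in p300kd cells, with p300kd cells on the left and NS cells on the right. Filled points passed an adjusted p of 0.05, which 38 genes did in p300kd cells and 17 in NS cells, and every filled point lies above 0.

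Among large subunit genes, 20 of 39 rose in p300kd cells (51.3%, against 13.9% of all genes). In NS cells 7 of 39 rose (17.9%, against 11.1% of all genes). That NS share is close to the 19.0% of other genes with a mean of at least 11 log2 units. With the block 29 rose in p300kd cells (74.4%, against 22.9% of all genes) and 25 in NS cells (64.1%, against 21.6%). Rpl22, an RNA-binding protein of the large subunit, had 11.25, 11.28 and 11.45 in p300kd cells at 8 h, against 10.89, 10.72 and 10.91 at 0 h. In NS cells it had 11.01, 11.21 and 11.21 at 8 h, against 10.87, 10.79 and 10.76 at 0 h. The groups did not overlap under either siRNA. Rpl22 rose by 0.49 in p300kd cells (adjusted p = 0.000991) and by 0.34 in NS cells (adjusted p = 0.0117), each with an SE of 0.0874.

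Rpl7a rose by nearly the same amount under both siRNAs, by 0.26 in p300kd cells (adjusted p = 0.00476) and by 0.25 in NS cells (adjusted p = 0.00677), each with an SE of 0.0596. Rpl24 rose by 0.46 in p300kd cells (SE 0.121, adjusted p = 0.0113), and its value in NS cells was 0.28 (adjusted p = 0.105). Rpl34 had 0.25 in NS cells (adjusted p = 0.101). Both NS values passed once the experiment was a block (adjusted p = 0.0141 for Rpl24 and 0.00681 for Rpl34). In p300kd cells Rpl7 missed the threshold at 0.29 (SE 0.104, adjusted p = 0.0507), as did Rpl14 at 0.22, and with the block both passed (adjusted p = 8.21e-05 for Rpl7 and 8.04e-05 for Rpl14).

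Rpl5 and Rpl11, which as free proteins bind MDM2 with the 5S ribosomal RNA, are named for that known role and not for their values. Rpl5 had a log2 change of 0.06 in p300kd cells and 0.05 in NS cells (SE 0.0604). Rpl11 had 0.12 in p300kd cells and 0.15 in NS cells (SE 0.0729). Neither passed from its brightest probe set. The mean of the Rpl5 probe sets, in place of the brightest, had 0.29 in p300kd cells (adjusted p = 0.00746). With the block Rpl11 passed under both siRNAs (adjusted p = 0.00641 in p300kd cells and 0.00171 in NS cells).

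The stalk proteins Rplp0, Rplp1 and Rplp2 bind elongation factors on the large subunit, and 0 of the 3 passed under either siRNA. Rplp0, often used as a reference gene in quantitative PCR, had 13.44, 13.35 and 13.38 in p300kd cells at 8 h, against 13.38, 13.25 and 13.33 at 0 h. The NS arrays gave 13.43, 13.32 and 13.42 at 8 h, against 13.37, 13.18 and 13.17 at 0 h. The groups overlapped under both siRNAs. Its change was 0.07 in p300kd cells (SE 0.0607, adjusted p = 0.399) and 0.15 in NS cells (SE 0.0607, adjusted p = 0.0865, or 0.00353 with the block). Rplp1 had 0.17 in p300kd cells (adjusted p = 0.149, or 0.00859 with the block) and 0.10 in NS cells. Rplp2 had 0.08 in p300kd cells and 0.06 in NS cells.

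All 3 members classed as paralogues by their symbol were called higher in p300kd cells, Rpl37l1 with a call that depended on the processing. In NS cells 0 of the 3 passed without the block. Rpl22l1, the paralogue of Rpl22, had 8.24, 8.47 and 8.55 in p300kd cells at 8 h, against 7.94, 7.93 and 7.89 at 0 h. NS cells had 7.75, 8.20 and 8.01 at 8 h, against 7.64, 7.84 and 7.72 at 0 h. The p300kd groups were apart, and the NS groups overlapped through replicate 1. Rpl22l1 rose by 0.50 in p300kd cells (SE 0.112, adjusted p = 0.00456, or 0.107 without experiment 3), and its value in NS cells was 0.25 (adjusted p = 0.118). Rpl36al1 rose by 0.46 in p300kd cells (SE 0.108, adjusted p = 0.00582) and had 0.27 in NS cells (adjusted p = 0.0792). Rpl37l1 rose by 0.16 in p300kd cells (SE 0.0518, adjusted p = 0.0292) and had 0.12 in NS cells (adjusted p = 0.106). The Rpl37l1 call in p300kd cells was lost in 12 of 25 alternatives, among them quantile normalisation, both centrings of the arrays and each experiment left out, with an adjusted p of up to 0.248. With the block the NS values passed, at adjusted p of 0.0285 for Rpl22l1, 0.00139 for Rpl36al1 and 0.00965 for Rpl37l1.

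Of the symbols that are no ribosomal protein gene, Rps19bp1 had the lowest change of the 73 under both siRNAs. Rpl17-ps16 lay within the range of the other members. Rps19bp1 had a log2 change of -0.16 in p300kd cells and -0.19 in NS cells (SE 0.0854), and Rpl17-ps16 had 0.11 in p300kd cells and 0.04 in NS cells (SE 0.0772). Rps4y2, annotated as a small subunit gene, had -0.06 in p300kd cells and -0.03 in NS cells (SE 0.0821). None of these passed. Of 4 ribosomal proteins that go by other names, 3 were measured. Fau, whose product releases small subunit protein eS30, rose by 0.18 in p300kd cells (SE 0.0538, adjusted p = 0.0194) and by 0.22 in NS cells (SE 0.0538, adjusted p = 0.00827). Rpsa had 0.19 in p300kd cells and 0.20 in NS cells, and Rack1 had 0.05 in p300kd cells and 0.02 in NS cells. Neither passed, and Rpsa passed under both siRNAs with the block.

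**Figure D3:**
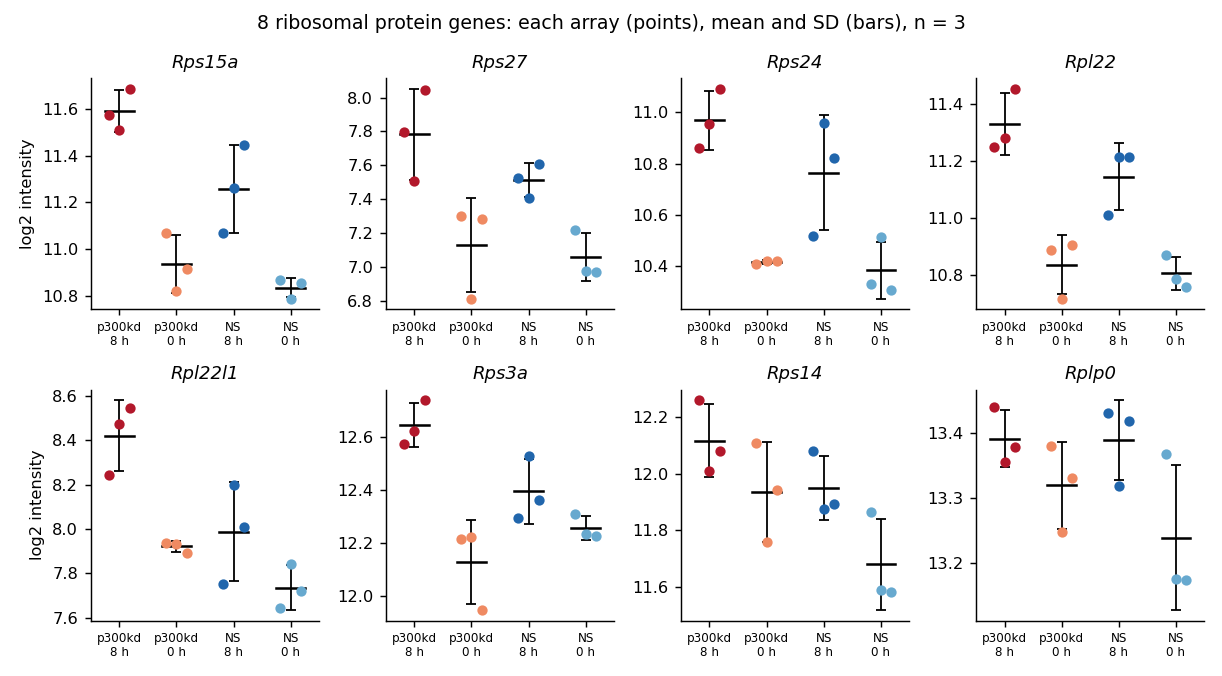
Log2 intensity of 8 ribosomal protein genes on the 12 arrays. Points are arrays in the order of replicates 1 to 3 within a group, the long bar is the mean and the whiskers are the SD (n = 3), and in Rps15a, Rps27, Rps24 and Rpl22 the 8 h arrays lie above the 0 h arrays of the same siRNA, while those of Rplp0 overlap.

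Dimmer probe sets had the larger changes. Across the 73 members, the change in p300kd cells had a Spearman rho of -0.69 with the mean log2 intensity, and the change in NS cells -0.67 (Pearson r -0.47 in p300kd cells and -0.36 in NS cells), given as a description across genes that share the same arrays. Of the 24 members below a mean of 12 log2 units, 19 rose in p300kd cells and 10 in NS cells, with medians of 0.44 in p300kd cells and 0.26 in NS cells. Of the 24 members between 12 and 13, 16 rose in p300kd cells and 6 in NS cells, with medians of 0.24 in p300kd cells and 0.16 in NS cells. Of the 25 at 13 or above, 3 rose in p300kd cells and 1 in NS cells, and both medians were 0.08. The block raised the counts in p300kd cells to 20, 21 and 11 from the dimmest to the brightest of these classes, and those in NS cells to 20, 15 and 12. An intensity also depends on the probes, so it does not order the transcripts by abundance, and the part of brightness in the changes was not tested.

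**Figure D4:**
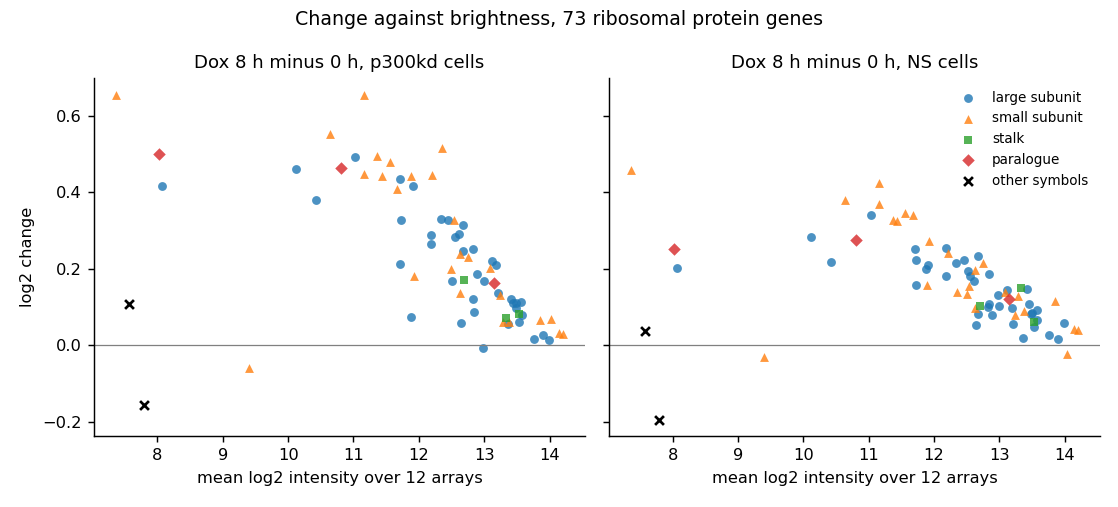
Log2 change after 8 h of Dox (vertical axis) against the mean log2 intensity over 12 arrays (horizontal axis) for the 73 genes, p300kd cells on the left and NS cells on the right, with the symbol giving the role. Members above 13 log2 units lie between 0.01 and 0.22 in p300kd cells and between -0.02 and 0.15 in NS cells, and most of the larger changes belong to dimmer probe sets.

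Other bright genes also had more rises than falls after Dox. Of 1810 other genes with a mean of at least 11 log2 units, 23.0% rose in p300kd cells (416 up, 281 down) and 19.0% in NS cells (343 up, 244 down), and their median change was 0.09 in p300kd cells and 0.10 in NS cells. The members had 52.1% in p300kd cells and 23.3% in NS cells. With the block 71.2% of members and 43.6% of the 1810 rose in p300kd cells, and 64.4% of members and 43.7% of the 1810 in NS cells. Among genes below 12 log2 units, 79.2% of members and 13.2% of other genes rose in p300kd cells, and 41.7% of members and 10.6% of other genes in NS cells. That class does not match the 2 in brightness. Of all genes, 25% had a mean below 6.87, whereas the dimmest member, Rps27, had 7.37. Between 12 and 13, 66.7% of members and 25.9% of other genes rose in p300kd cells. In NS cells the shares of that class were close, at 25% of members and 22.1% of other genes. At 13 or above, 12% of members and 18.3% of other genes rose in p300kd cells, and 4% of members and 12.7% of other genes in NS cells. The block turned these shares of the brightest genes into 44% of members and 40.1% of other genes in p300kd cells, and 48% of members and 50.8% of other genes in NS cells. Between 12 and 13 it gave 87.5% of members and 48.6% of other genes in p300kd cells, and 62.5% of members and 48.8% of other genes in NS cells. Below 12 it gave 83.3% of members under both siRNAs, and 21.5% of other genes in p300kd cells and 19.9% in NS cells. When each array was centred on those 1810 genes, an alternative added after the data were seen, 32 members rose in p300kd cells and 11 in NS cells, and 0 fell. With that centring 43.8% of members and 11.2% of all genes rose in p300kd cells, and 15.1% of members and 9.15% of all genes in NS cells.

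Several ribosomal protein genes have more than 1 probe set on the array, and the genome holds many processed copies of these genes, so the signal of a probe set cannot always be assigned to a single locus. The 73 members had 260 single-symbol probe sets, 54 members had more than 1, and Rpl21 had 21. Of the 260, 257 lay above 0 after Dox in p300kd cells (98.8%) and 255 in NS cells (98.1%). The median spread between the probe sets of a member was 0.0564 log2 units in p300kd cells and 0.0398 in NS cells. The 6 probe sets of Rps15a lay between 0.62 and 0.65 in p300kd cells. The 3 probe sets of Rpl5 were further apart, at 0.06, 0.41 and 0.42 in p300kd cells and at 0.05, 0.26 and 0.23 in NS cells, and the first of them was the brightest. In 6 members a total of 14 probe sets had values identical to another probe set, so these are not separate readings.

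The design also asks whether the Dox response differs with less p300. Of the 17 genes called in NS cells, 16 were among the 38 called in p300kd cells (42.1% of the 38 and 94.1% of the 17). With the block 40 genes were called under both siRNAs, which is 76.9% of the 52 in p300kd cells and 85.1% of the 47 in NS cells. Across the 73 genes the change in p300kd cells and the change in NS cells, which share no arrays, had a Pearson r of 0.87, as a description. The overlap and the correlation over all genes are not given here, so neither is read as particular to the 73. The change was larger in p300kd cells for 57 of the 73 (50.7% of all genes), with a median difference of 0.07 log2 units against 0.002 for all genes. In the test of that difference limma called 0 of 73 members, and 0% of all genes were called. At an unadjusted p under 0.05, 1 member was higher, against 0.848% of all genes. That member was Rps3a, with a difference of 0.38 (SE 0.12, adjusted p = 1.00), and the next were Rps25, Rpl22l1, Rps15a and Rpl15, which also did not pass. The larger number of calls in p300kd cells is therefore not shown to be a different response.

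Less p300 by itself was tested in the same model. At 0 h limma called 0 of 73 members, against 0.0207% of all genes (0.00689% higher and 0.0138% lower), and 2 members were higher at an unadjusted p under 0.05, against 2.53% of all genes. The median log2 difference was 0.06, against 0.004 for all genes, with 0.05, -0.0016 and 0.12 by experiment. In all, 63 of the 73 lay above 0, against 51.6% of all genes, and 12 had p300kd arrays wholly above the NS arrays, against 6.18%. With the block 2 members were higher, Rps14 (0.26, adjusted p = 0.00927) and Rpl18 (0.15, adjusted p = 0.0494), against 0.696% of all genes.

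At 8 h limma called 0 of 73 members, against 0.0483% of all genes, all of them lower, and 18 members were higher at an unadjusted p under 0.05, against 3.07% of all genes. The median difference was 0.12, against 0.005 for all genes, and 0.15, 0.05 and 0.13 by experiment, and 69 of the 73 lay above 0, as did 52.1% of all genes. In 27 members every p300kd array was above every NS array, against 4.76% of all genes. With the block 9 members were higher and 0 lower, against 0.765% of all genes. They included Rpl22l1 (0.43, adjusted p = 0.0184), Rps15a (0.33, adjusted p = 0.0385) and Rps9 (0.22, adjusted p = 0.0269). Rps27 (0.27), Rpl27a and Rps3a (0.25) were the other members with the largest differences at 8 h. Of these, Rpl27a passed with the block. This comparison uses the same p300kd arrays at 8 h as the Dox comparison in p300kd cells, so the 2 are not separate readings.

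Averaged over both times, limma called 0 of 73 members, against 1.25% of all genes (0.227% higher and 1.02% lower), and 17 members were higher at an unadjusted p under 0.05, against 5.02% of all genes. The median difference was 0.08, against 0.006 for all genes, and 71 of the 73 lay above 0, as did 52.6% of all genes. With the block 16 were higher and 0 lower, against 3.23% of all genes. Rpl22l1 had the largest difference, 0.31 (SE 0.0794, adjusted p = 0.0905, or 0.00529 with the block). It was followed by Rps15a at 0.22, Rps14 at 0.21, Rps9 at 0.19 and Rps13 at 0.18, all of which passed with the block. Rpl37l1 had 0.12 (adjusted p = 0.159, or 0.00596 with the block) and Rpl36al1 had 0.05. Leaving out p300kd replicate 1 at 8 h gave 1 call, with 0.379% of all genes called higher.

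Markers of other cells differed with the siRNA too. Of 10 markers of macrophages and leukocytes, 4 were lower in p300kd cells averaged over both times and 0 higher, with a median of -0.32. With the block 8 of the 10 were lower averaged, 6 at 8 h and 4 at 0 h. Their summed log2 intensity was 12.90 to 13.25 in p300kd cells at 8 h and 12.71 to 13.28 in p300kd cells at 0 h, against 13.23 to 13.56 in NS cells at 8 h and 13.25 to 13.52 in NS cells at 0 h. Of 10 fibroblast markers 0 passed (6 lower with the block), with a median of -0.15. Their sum was 15.44 to 15.66 in p300kd cells at 8 h and 15.41 to 15.67 in p300kd cells at 0 h, against 15.61 to 15.72 in NS cells at 8 h and 15.62 to 15.73 in NS cells at 0 h. No marker was at 0, since every probe set has an intensity, and the part of these cells in the ribosomal protein values was not tested.

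The first bases of the transcripts are shown for the 8 members with the largest rise in p300kd cells, because the TOP motif sits there. Each line gives 30 bases of the sense strand 5′ to 3′, 10 before the annotated start and 20 from it on, from RefSeq (GRCr8), with CTTT in capitals.
Rps15a (chr1:181860265-181860294, minus strand): ttttCTTTccacagtcaccatggtgcgaat
Rps27 (chr2:177964587-177964616, minus strand): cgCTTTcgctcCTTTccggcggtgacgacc
Rps24 (chr16:96507-96536, plus strand): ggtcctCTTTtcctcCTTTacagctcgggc
Rps3a (chr2:173827023-173827052, minus strand): gtacttccgccCTTTtggctctcagagcgg
Rpl22l1 (chr2:113683186-113683215, plus strand): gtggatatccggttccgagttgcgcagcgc
Rps12 (chr1:23500065-23500094, plus strand): gaagcccagcagagcgcttaaataccgtca
Rpl22 (chr5:168117951-168117980, plus strand): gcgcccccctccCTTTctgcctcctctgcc
Rps19 (chr1:89608678-89608707, plus strand): cttgtgcgcccgggaaaccccgtcgttccc
Of these 8 windows, those of Rps15a, Rps27, Rps24, Rps3a and Rpl22 hold CTTT on the sense strand and those of Rpl22l1, Rps12 and Rps19 do not.

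The promoter table held 61 of the 73 members. CTTT stood in the 30-base window of 36 of them (59.0%), against 11.4% of 27457 promoters, and CTTTCC, which contains CTTT, in 24.6% against 1.18%. The 36 members with CTTT had a median Dox change of 0.26 in p300kd cells and 0.19 in NS cells, and the 25 without it 0.14 in p300kd cells and 0.13 in NS cells. CCGGAA, searched on both strands of the 300 bases from 250 before the start to 50 after, stood in 50.8% of the members. It stood in 15.8% of all promoters and in 18.6% of those of coding genes. CACGTG on both strands stood in 8.20% of members, 6.65% of all promoters and 7.27% of coding ones. TATAAA on the sense strand stood in 9.84% of members, 9.08% of all promoters and 8.62% of coding ones. The 31 members with CCGGAA had a median Dox change of 0.17 in p300kd cells and 0.15 in NS cells, and the 30 without it 0.23 in p300kd cells and 0.14 in NS cells. These are matches of letters and were not measured as binding or as start sites in these cells.

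Calls among other genes of ribosome production were mostly lower. Among all genes too more fell than rose, 17.5% against 13.9% in p300kd cells and 16.4% against 11.1% in NS cells. Of 15 measured genes of RNA polymerase I and its factors, 7 fell and 3 rose after Dox in p300kd cells, and 7 fell and 1 rose in NS cells, with medians of -0.25 in p300kd cells and -0.33 in NS cells. The block gave 8 down and 3 up under both siRNAs. Among all 14506 genes it gave 3310 down and 3329 up in p300kd cells, and 3184 down and 3133 up in NS cells. These values of all genes are the background for the lists that follow as well. Polr1a, the catalytic subunit, fell by 0.82 in p300kd cells and by 0.75 in NS cells. Polr1h fell by 0.83 in p300kd cells and by 0.85 in NS cells, and Polr1c, which RNA polymerase III shares, by 0.66 in p300kd cells and by 0.71 in NS cells. Polr1g rose by 0.57 in p300kd cells and by 0.47 in NS cells.

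Of 40 measured ribosome assembly factors, 10 fell and 4 rose in p300kd cells, and 12 fell and 2 rose in NS cells, with medians of -0.06 in p300kd cells and -0.14 in NS cells. With the block 15 fell and 5 rose in p300kd cells, and 15 fell and 4 rose in NS cells. Ppan, a factor of large subunit assembly, fell by 0.77 in p300kd cells and by 0.61 in NS cells. Heatr1, of the small subunit processome, fell by 0.78 in p300kd cells and by 0.61 in NS cells, and the kinase Riok2 by 0.54 in p300kd cells and by 0.58 in NS cells. Nop16 rose by 0.73 in p300kd cells and by 0.44 in NS cells, and Rrp9 by 0.39 in p300kd cells and by 0.40 in NS cells. All these values had adjusted p under 0.05, and 17.5% of all genes fell in p300kd cells and 16.4% in NS cells.

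Of 20 measured genes that are known TOP mRNAs but encode no ribosomal protein, 5 rose and 0 fell in p300kd cells, and 0 rose and 1 fell in NS cells, with medians of 0.19 in p300kd cells and 0.11 in NS cells. With the block the counts were 13 up and 1 down in p300kd cells, and 8 up and 1 down in NS cells. Eef1b2, an exchange factor of elongation, rose by 0.67 in p300kd cells (adjusted p = 0.00202) and had 0.33 in NS cells (adjusted p = 0.089, or 0.0148 with the block). Eif3e rose by 0.40 in p300kd cells and had 0.18 in NS cells, and Npm1, nucleophosmin, rose by 0.28 in p300kd cells and had 0.18 in NS cells. Both NS values passed with the block (adjusted p = 0.03 for Eif3e and 0.0061 for Npm1). Eif4b had -0.15 in p300kd cells (adjusted p = 0.144, or 0.019 with the block) and fell by 0.27 in NS cells (adjusted p = 0.0156).

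**Figure D5:**
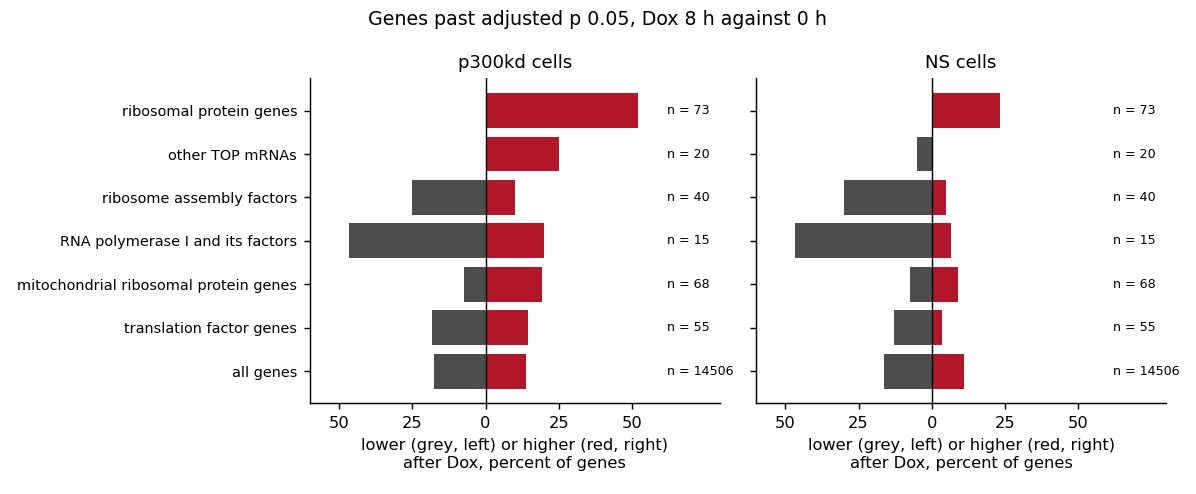
Percent of the genes of each list that passed an adjusted p of 0.05 after 8 h of Dox, higher in red to the right and lower in grey to the left, in p300kd cells (left) and NS cells (right), with the number measured beside each bar. Ribosomal protein genes have calls in the higher direction alone, 52.1% in p300kd cells and 23.3% in NS cells, while genes of RNA polymerase I and assembly factors have most of their calls lower.

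The mitochondrial ribosomal protein genes, which serve the ribosome of the mitochondrion, had calls in both directions. Of 68, 13 rose (19.1%) and 5 fell in p300kd cells, and 6 rose (8.82%) and 5 fell in NS cells. Their medians were 0.15 in p300kd cells and 0.13 in NS cells. Of all genes, 13.9% rose and 17.5% fell in p300kd cells, and 11.1% rose and 16.4% fell in NS cells. The block gave 32 up (47.1%) and 12 down in p300kd cells, and 28 up (41.2%) and 11 down in NS cells. With it 22.9% of all genes rose in p300kd cells and 21.6% in NS cells. Of 55 translation factor genes, 8 rose (14.5%) and 10 fell in p300kd cells, close to the shares of all genes. In NS cells 2 rose (3.64%) and 7 fell. Their medians were 0.05 in p300kd cells and 0.02 in NS cells. For these the block gave 17 up (30.9%) and 14 down in p300kd cells, and 12 up (21.8%) and 13 down in NS cells. The difference between these lists and the cytosolic ribosomal protein genes was not tested.

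Among 19 measured genes of mTOR and S6 kinase control, 5 fell and 0 rose in p300kd cells, and 5 fell and 2 rose in NS cells, with medians of -0.02 in p300kd cells and 0.03 in NS cells. Here the block gave 7 down and 3 up in p300kd cells, and 5 down and 3 up in NS cells. Mlst8, a subunit shared by both mTOR complexes, fell by 1.20 in p300kd cells and by 1.11 in NS cells. Sesn1, an inhibitor of mTORC1, fell by 0.69 in p300kd cells and by 0.99 in NS cells. Pdcd4, an S6 kinase substrate that inhibits translation initiation, fell by 0.86 in p300kd cells and by 0.77 in NS cells.

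Among 11 measured factors known at ribosomal protein promoters, 3 rose and 2 fell in p300kd cells, and 2 rose and 2 fell in NS cells, with medians of -0.06 in p300kd cells and -0.15 in NS cells. Mxd1 and Mxi1, which compete with MYC for MAX, rose: Mxd1 by 0.65 in p300kd cells and by 0.56 in NS cells, and Mxi1 by 0.42 in p300kd cells and by 0.35 in NS cells. Max itself fell by 0.49 in p300kd cells and by 0.39 in NS cells, and Zbtb7a fell by 0.40 in p300kd cells and by 0.26 in NS cells. E2f1 rose by 0.47 in p300kd cells and had 0.31 in NS cells (adjusted p = 0.0644, or 0.00537 with the block). With the block 4 of the factors rose and 3 fell in p300kd cells, and 3 rose and 4 fell in NS cells.

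Of 7 measured genes of p53 and ribosomal stress, 5 rose and 0 fell under both siRNAs, with medians of 0.42 in p300kd cells and 0.46 in NS cells. Pmaip1, a BH3-only protein, rose by 2.03 in p300kd cells and by 2.00 in NS cells. Mdm2, the ubiquitin ligase of p53 that free Rpl5 and Rpl11 bind, rose by 0.74 in p300kd cells and by 0.72 in NS cells. Cdkn1a, the cyclin-dependent kinase inhibitor p21, rose by 0.59 in p300kd cells and by 0.68 in NS cells. None of the genes in these pathway lists was called between p300kd and NS cells at 0 h, at 8 h or averaged, without the block.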

How the data were processed

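Each probe set has 1 deposited intensity per array, made with Affymetrix Expression Console 1.1 and RMA per the submitters' processing notes. The values are linear, and the step that made them so is not given in the sources used here. RMA normalises the arrays to a common distribution, so a change shared by all transcripts would not show. Log2 was taken here. The platform annotation gave 1 symbol for 15310 of 29214 probe sets, several for 323 and none for 13581. Only the first were used, the brightest per gene, with no filter on level. A model of 4 group means was fitted over all 14506 genes with limma 3.58.1 in R 4.3.3 (lmFit, contrasts.fit, eBayes with trend on). Tests were two-sided with 8 residual degrees of freedom, and Benjamini-Hochberg adjustment ran over all genes of a comparison. A gene was called, or passed, at an adjusted p under 0.05. A log2 change is 8 h minus 0 h or p300kd minus NS. The fit was tested on simulated data, and Python 3.11.15 with matplotlib 3.10.9 made the figures.

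Replicate numbers were taken to mark experiments, which the sample titles do not state. Arrays with 1 number in different groups deviated from their group means together (18 pairs, correlation 0.172 to 0.689, median 0.504, other pairs median -0.271). Deviations within a group cancel, so the negative median of the other pairs follows from the positive one and adds nothing to it. Because arrays with 1 number varied together, the replicate block was given beside member calls and counts that it changes. The number of arrays limits the precision, and the median SE of a difference between 2 groups was 0.0951.

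The members, gene lists, tests and alternatives were chosen with earlier results of these data known. Named genes were, per comparison, up to 10 called members with the largest change whose groups did not overlap and up to 5 that did not pass, all paralogue and stalk genes, ribosomal proteins with other names, and up to 3 called genes per direction of each list. Rps2, Rpl5, Rpl11, Rpl17-ps16, Rps19bp1 and Rps4y2 were named outside that rule. Of the marker lists, those of endothelium (0 up and 2 down under both siRNAs after Dox, and with the block 0 up and 3 down in p300kd cells and 1 up and 4 down in NS cells), smooth muscle and pericytes (0 up and 2 down, and with the block 3 up and 3 down in p300kd cells and 3 up and 2 down in NS cells) and erythroid cells (1 up and 0 down) were also counted. Alternatives were the block as a fixed or random term, other normalisations, no variance trend, an offset of 16 before the log, dim genes left out, the mean of a gene's probe sets, only the groups compared, and each array or experiment left out.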

Additional observations from a re-analysis of the deposited data

How the results depend on the processing

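Over all alternatives the number of members called lower was 0. After Dox in p300kd cells, where 38 were called, quantile normalization gave 25, against 13.6% of all genes. Leaving out 1 array or experiment gave 10 (without experiment 2, 5% of all genes) to 39 (without experiment 1, 15.2% of all genes). After Dox in NS cells, where 17 were called higher, the replicate block gave 47, the random replicate block 35, arrays centred on other bright genes 11 and quantile normalization 10. In that order these were 64.4%, 47.9%, 15.1% and 13.7% of members, against 21.6%, 19.1%, 9.15% and 11.4% of all genes. Without 1 array or experiment the number ran from 0 (without experiment 3, 4.18% of all genes) to 25 (without experiment 1, 11.5% of all genes). Between p300kd and NS cells, where 0 were called, the replicate block gave 2 at the 0 h time, 9 after 8 h and 16 for the average of the times. Of all genes 0.696%, 0.765% and 3.23% were higher there. The random replicate block gave 1 at 8 h (0.0827% of all genes) and 9 averaged (1.55% of all genes). Centring on other bright genes gave 1 averaged (0.303% of all genes), and leaving out 1 array or experiment 0 to 1. The difference in Dox response had 0 calls in every alternative. The values that changed sign were those of Rack1 in NS cells (-0.017 centred on other bright genes, -0.0043 with quantile normalization, -0.020 without experiment 1, -0.012 without NS replicate 1 at 8 h, up to 0.040 with other arrays left out) and Rpl5 (-0.041 in p300kd cells and -0.028 in NS cells with quantile normalization, -0.0027 in p300kd cells without p300kd replicate 3 at 8 h, up to 0.10 with other arrays left out). Neither passed in any setting, except Rpl5 in p300kd cells with the mean of its probe sets (0.29, adjusted p = 0.00746). Apart from fewer arrays, the cause of these moves was not tested. With 3 arrays a group, changes near the SE of a member cannot be read singly, and intensities of the brightest probe sets were not checked against the scanner's range, which is not used here.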
